A study of Rattus norvegicus with 6 samples.

Results

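The ligands IGF1 and IGF2, the receptors for insulin and the IGFs, and the proteins that couple these receptors to the cell were followed in the rat heart primordium around the first heartbeats. A gene was a member if the array annotation gave a probe the name Igf1, Igf2, Igf1r, Igf2r, Insr, Irs1, Irs2, Grb10 or Grb14. These were 9 of 26269 gene names on the array and 14 of 30367 probes, since 5 of the genes had 2 probes and 4 had 1. After the filter on dim probes, 13 of the 14 probes were tested, and every one of the 9 genes kept at least 1. Only mRNA was measured, so neither protein nor receptor activity enters the values.

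Heart primordia of Wistar rat embryos ("Wister rat" in the sample labels) at E10 were taken before and after heartbeat initiation. The pre-heartbeat group (3 samples) had a flat centre and the post-heartbeat group (3 samples) a raised centre, and no treatment or genetic change was named for either group. Total RNA was labeled with Cy3 and hybridized to 1-color Agilent arrays, with 1 array per sample. The samples were described as biological replicates, and whether several primordia were pooled in a sample was not given in the sources used here. The first and second heart fields were not separated in the dissection, so each value is an average over the cells of the whole primordium, in which fewer cells of a type and less RNA per cell cannot be told apart.

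Insulin and the IGFs are secreted peptides that bind receptor tyrosine kinases on the cell surface. The activated receptor phosphorylates docking proteins of the IRS family, which pass the signal to the PI3K and AKT, mTOR and MAPK arms and so to growth, protein synthesis and glucose uptake. The IGFs are growth factors of the embryo, several genes of the system are imprinted, and IGF2 is known as a mitogen of the embryonic heart muscle.

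Of the 9 genes, Grb14 was higher after heartbeat initiation by limma, and 0 were lower. Grb14, an adaptor that binds activated insulin receptors and restrains their signal, had 2.74 times the signal in the post-heartbeat group. Igf1 had 0.736 times the signal, and its groups did not overlap, but its difference did not pass the test. Igf2 and Igf2r, whose probes lay far above the 75th percentile on every array, had log2 differences of 0.23 and 0.12 with overlapping groups. At a limma adjusted p under 0.05, 1 of the 13 member probes was higher and 0 were lower, beside 0.119% and 0.0207% of all 19297 tested probes. Counted by gene, 1 of 9 was higher and 0 were lower, beside 0.157% and 0.0315% of 12706 genes.

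The probes of 3 genes carry most of what follows: both probes of Grb14, which moved together, both probes of Igf1, which lie far apart in the gene, and both probes of Grb10, of which the dimmer one followed the slide. Each is a 60-base probe, and the first 30 bases are shown where the probe may reach into an untranslated region. Positions are given on the rn4 rat genome, as in the array annotation. Exon and UTR annotation on this build was not used here. "Brighter" and "dimmer" name the probes of 1 gene by their mean signal, which was used only to choose 1 probe to stand for the gene.
Grb14 brighter probe: gatcacaaggctggaaacaaatcatggtga
Grb14 dimmer probe: ggattcgtattactctcgttactttaaatt
Igf1 brighter probe: agcaacctgcaaaacatcggaacacctgcc
Igf1 dimmer probe: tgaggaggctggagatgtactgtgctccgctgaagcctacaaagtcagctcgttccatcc
Grb10 brighter probe: gactctggttcacaattttgtacgtagctg
Grb10 dimmer probe: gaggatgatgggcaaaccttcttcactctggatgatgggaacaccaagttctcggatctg

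Signals are log2 intensities less the 75th percentile of the array, so a signal of 0 is that percentile, and a difference of 1 between the groups is a change of 2 fold. Levels of different probes are not set against each other, because each probe binds its target with its own strength. The 75th percentile of the arrays lay between 1145.76 and 1701.98 intensity units, between 67.1% and 70.4% of the spots were well above background, and 0 were saturated. The arrays lay on 2 slides. Pre-heartbeat replicate 1 shared slide 1 with post-heartbeat replicates 1 and 2, and the other three arrays were on slide 2. Between the slides 3148 probes (16.31%) differed, so the difference of each member probe is given without and with the slide as a block. The median difference over all tested probes was -0.03 on the log2 scale, and -0.02 with the slide as a block.

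**Figure D1:**
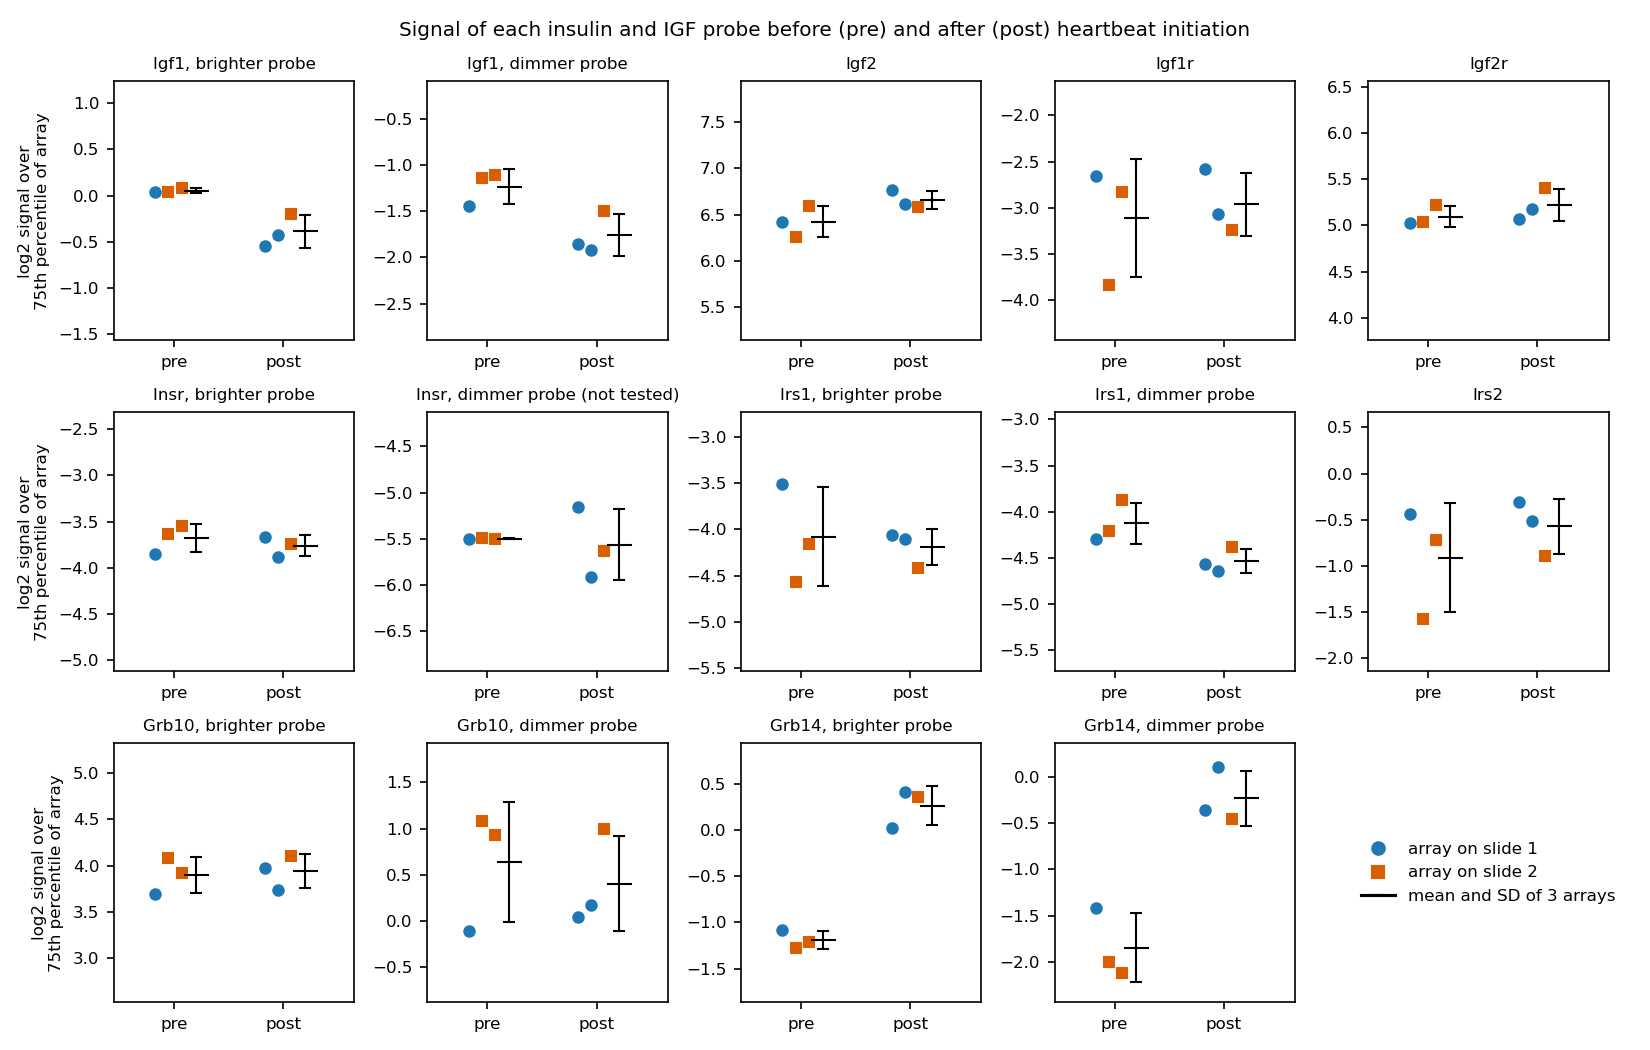
Signal of the 14 member probes on each array, as log2 intensity less the 75th percentile of the array, with 1 panel for each probe. Each point is 1 array, its shape and color give the slide, and bars are the mean and SD of a group. The Grb14 points of the post-heartbeat group lie above all those of the pre-heartbeat group for both probes, and the Igf1 points lie below them.

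Among the ligands, Igf1 encodes the growth factor that binds mainly the receptor encoded by Igf1r. Its brighter probe, on the plus strand of chromosome 7 (chr7:24604715-24604774), had signals of 0.04, 0.04 and 0.08 on the pre-heartbeat arrays and -0.54, -0.42 and -0.20 on the post-heartbeat arrays. The pre-heartbeat arrays were nearly equal, and every post-heartbeat array was below them. The log2 difference was -0.44 (SE 0.15, 95% interval -0.78 to -0.10, limma adjusted p = 0.481), and -0.39 with the slide as a block (limma adjusted p = 0.349). Within slide 1 it was -0.52, and within slide 2 it was -0.26.

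The dimmer probe of Igf1 (chr7:24587916-24587975) lies 16739 bases from the brighter one. The annotation lists 2 RefSeq transcripts for it and 4 for the brighter probe. Its signals were -1.45, -1.14 and -1.11 before and -1.86, -1.92 and -1.50 after heartbeat initiation, again with no overlap. This gave a log2 difference of -0.53 (SE 0.18, limma adjusted p = 0.504), and -0.41 with the slide as a block (limma adjusted p = 0.253). Both probes of Igf1 thus had the same sign and a like size, and neither passed the test across all probes.

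Igf2 encodes the fetal IGF and is an imprinted gene, expressed mainly from the paternal copy in most tissues of the embryo. Its probe (minus strand, chr1:202906641-202906700) had signals of 6.42, 6.26 and 6.59 in the first group and 6.77, 6.61 and 6.58 in the second. The groups overlapped by a single array, pre-heartbeat replicate 3, and all 6 arrays lay far above the 75th percentile. The log2 difference was 0.23 (SE 0.15, 95% interval -0.12 to 0.58, limma adjusted p = 0.866), which was 0.21 with the slide as a block. This interval ends at a difference of 0.58, but it holds for the 75th percentile shift only. Over the settings with all arrays the difference of Igf2 ran from 0.21 to 0.36, the latter with quantile normalization (SE 0.19).

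The insulin genes themselves were also on the array and were looked up after the values of the members had been seen. Ins2 had signals of -3.90, -5.07 and -3.66 before and -4.97, -5.15 and -5.77 after heartbeat initiation. Its pre-heartbeat replicate 2 lay among the post-heartbeat arrays, and the log2 difference of -1.08 (SE 0.40) did not pass the test (limma adjusted p = 0.589, and 0.147 with the slide as a block). With normexp background correction, which bears on dim probes, its difference was -0.52. Ins1 had a log2 difference of -0.26 (SE 0.26, limma adjusted p = 0.866), or -0.12 in the slide block.

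Among the receptors, Igf1r encodes the receptor tyrosine kinase through which both IGFs signal. Its probe (chr1:122989150-122989209) gave -2.65, -3.84 and -2.83 before and -2.58, -3.07 and -3.24 after heartbeat initiation. Pre-heartbeat replicate 2 was the lowest of the 6 arrays, and the groups overlapped. Its log2 difference was 0.15 (SE 0.34, 95% interval -0.66 to 0.95, limma adjusted p = 0.908), while the fit with the slide as a block gave -0.04. This probe was printed in 10 spots per array, whose values had a median SD of 0.092 within an array (0.066 to 0.158), while the SD between arrays was 0.64 before and 0.34 after heartbeat initiation.

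Insr encodes the insulin receptor. Its brighter probe (chr12:3086616-3086675) had signals of -3.85, -3.63 and -3.55 before and -3.66, -3.89 and -3.74 after heartbeat initiation, with overlapping groups. This gave a log2 difference of -0.09 (SE 0.15, 95% interval -0.44 to 0.27, limma adjusted p = 0.881), and -0.04 with the slide as a block. The dimmer probe, 864 bases away, was well above background on 2 of 3 arrays in each group and was not tested. Its difference of -0.06 is given as a description only.

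Igf2r encodes the mannose 6-phosphate receptor, which takes IGF2 to the lysosome and carries no kinase. Its probe (chr1:42340766-42340825) had signals of 5.03, 5.03 and 5.22 before and 5.07, 5.18 and 5.41 after heartbeat initiation. The groups overlapped, and the log2 difference was 0.12 (SE 0.15, 95% interval -0.23 to 0.48, limma adjusted p = 0.866), or 0.19 with the slide as a block. For all 3 receptors the 95% interval included 0 in both fits.

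Irs1 and Irs2 encode the docking proteins that the activated receptors phosphorylate. The brighter probe of Irs1 (chr9:81585685-81585744) had signals of -3.51, -4.57 and -4.16 before and -4.06, -4.11 and -4.42 after heartbeat initiation. Pre-heartbeat replicates 1 and 2 were the highest and the lowest of the 6 arrays, so that the post-heartbeat group lay within the pre-heartbeat group. Between the groups this was a log2 difference of -0.11 (SE 0.28, 95% interval -0.77 to 0.54, limma adjusted p = 0.912), and -0.31 with the slide as a block (limma adjusted p = 0.738). Its 10 spots per array had a median SD of 0.158, against 0.54 between the pre-heartbeat arrays and 0.19 between the post-heartbeat arrays.

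The dimmer probe of Irs1 (chr9:81633784-81633843) lies 48039 bases away. Its signals were -4.29, -4.21 and -3.87 before and -4.57, -4.64 and -4.39 after heartbeat initiation, and every post-heartbeat array was below every pre-heartbeat array. The log2 difference was -0.41 (SE 0.17, limma adjusted p = 0.687), and -0.33 with the slide as a block (limma adjusted p = 0.536). The 2 probes of Irs1 therefore differed in whether the groups overlapped, and neither passed the test.

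Irs2 had signals of -0.44, -1.57 and -0.72 on the pre-heartbeat arrays and -0.31, -0.52 and -0.89 on the post-heartbeat arrays (chr16:83403814-83403873). Pre-heartbeat replicate 2 stood below the other five. Its log2 difference was 0.34 (SE 0.31, 95% interval -0.40 to 1.08, limma adjusted p = 0.866), and 0.14 with the slide as a block. The widest intervals among the genes by their brighter probe were those of Igf1r, Irs2 and Irs1, and in these 3 genes pre-heartbeat replicate 2 was the lowest of all arrays.

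Grb10 and Grb14 belong to a family of adaptors that bind the activated insulin and IGF1 receptors and are known as inhibitors of their signal. Grb14 was the one member that rose. Its brighter probe (minus strand, chr3:46832472-46832531) had signals of -1.08, -1.28 and -1.21 before and 0.02, 0.41 and 0.36 after heartbeat initiation. The pre-heartbeat arrays lay below the 75th percentile and the post-heartbeat arrays at or above it, with a gap wider than the spread within either group. The means were -1.19 ± 0.10 (SD, n = 3) and 0.26 ± 0.21 (SD, n = 3). The log2 difference was 1.45 (SE 0.16, 95% interval 1.08 to 1.83, limma adjusted p = 0.0423), which is 2.74 fold. With the slide as a block it was 1.45 (limma adjusted p = 0.0102), and it was 1.29 within slide 1 and 1.60 within slide 2. A two-sided exact permutation test gave p = 0.1, the smallest value that 3 arrays per group allow.

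The dimmer probe of Grb14 (chr3:46832380-46832439) lies 32 bases from the brighter one, so the 2 probes read nearly the same stretch of the mRNA and are not independent measurements. Its signals were -1.41, -2.00 and -2.12 before and -0.36, 0.11 and -0.45 after heartbeat initiation, without overlap. Its log2 difference was 1.61 (SE 0.24, 3.06 fold), which missed the threshold without a block (limma adjusted p = 0.0829) and passed it with the slide as a block (1.45, limma adjusted p = 0.0121). In this probe 20% of the bases were G or C, the lowest share among the 14 probes.

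The call of Grb14 stood close to the threshold. When single arrays were left out, the brighter probe had a log2 difference between 1.38 and 1.57, and in every one of these 6 fits the limma adjusted p was above 0.05 (0.102 to 0.281). It was also above 0.05 with quantile normalization (1.43, p = 0.0588), with the ratios of the authors (1.43, p = 0.0562), and without the filter on dim probes (1.45, p = 0.123), all limma adjusted p. The direction was the same in each.

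**Figure D2:**
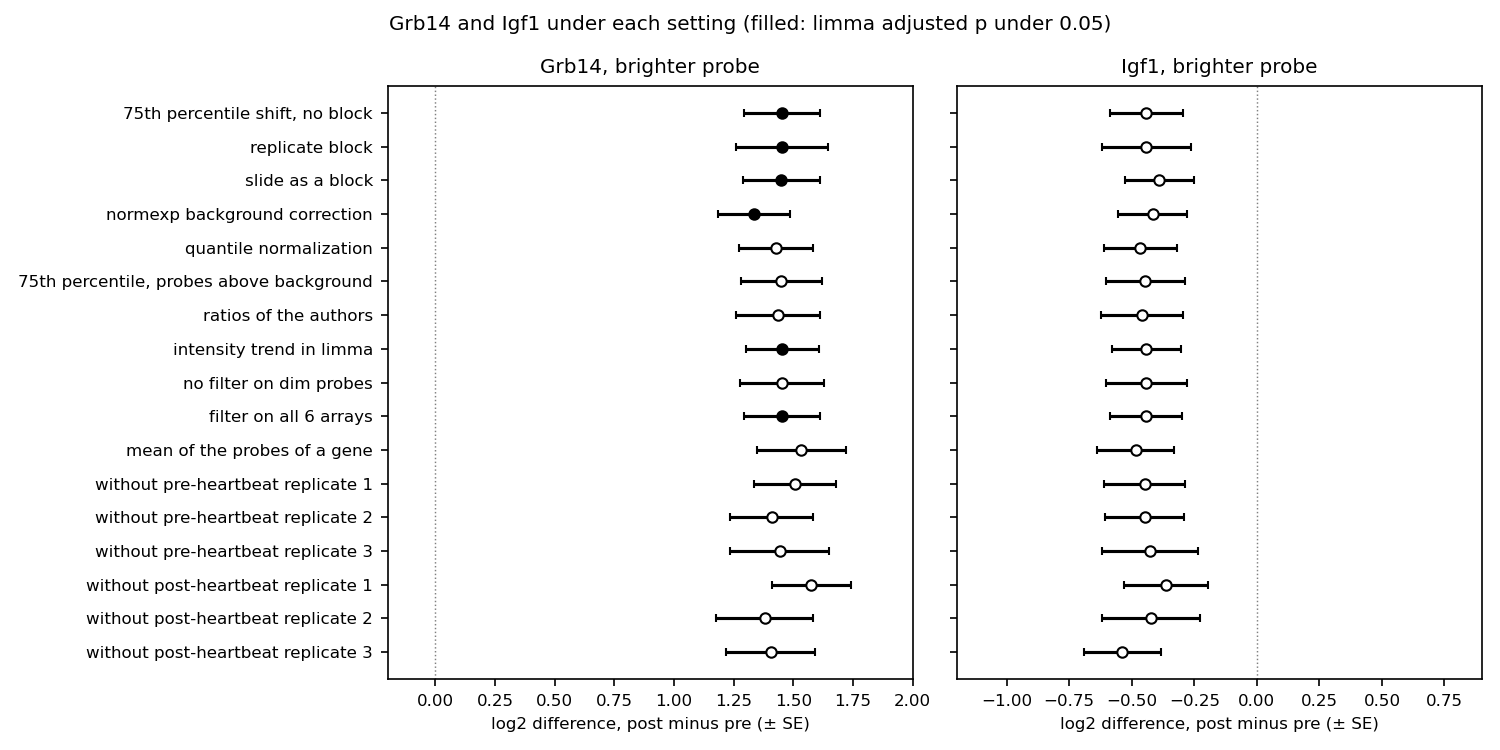
Log2 difference between the groups for the brighter probes of Grb14 (left) and Igf1 (right) under each processing setting, where points are estimates, bars are SE, and filled points have a limma adjusted p under 0.05. Grb14 stayed between 1.34 and 1.57 with filled points in 6 settings, and Igf1 stayed below 0 with none.

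Grb10, an imprinted gene and an inhibitor of fetal growth, had signals of 3.70, 4.08 and 3.92 before and 3.98, 3.74 and 4.11 after heartbeat initiation with its brighter probe (minus strand, chr14:92815584-92815643). The groups overlapped, and the log2 difference was 0.04 (SE 0.17, 95% interval -0.36 to 0.44, limma adjusted p = 0.950), or 0.13 with the slide as a block. The interval of Grb10 (-0.36 to 0.44) and that of Grb14 (1.08 to 1.83) did not meet, although no test of the difference between these genes was made.

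The dimmer probe of Grb10 (chr14:92817829-92817888), 2185 bases away, had signals of -0.11, 1.09 and 0.93 on the pre-heartbeat arrays and 0.05, 0.17 and 0.995 on the post-heartbeat arrays. Its values followed the slide: the 3 arrays of slide 1 lay between -0.11 and 0.17 and the others between 0.93 and 1.09. It was the one member probe that differed between the slides. The log2 difference between the groups was -0.23 (SE 0.38, limma adjusted p = 0.876), and 0.10 with the slide as a block. Grb7, the third adaptor of the family, was looked up after these values had been seen and had a log2 difference of 0.41 (SE 0.20, limma adjusted p = 0.836), or 0.32 in the slide block.

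Across the members, the groups did not overlap in 5 of the 13 tested probes, 2 of them higher and 3 lower, beside 5.38% and 6.14% of all tested probes. The higher ones were both probes of Grb14, and the lower ones both probes of Igf1 and the dimmer probe of Irs1. In the selection of the study's methods (at least 1.5 fold, and p under 0.05 in the Tukey HSD test without adjustment), 2 of the 13 member probes were higher, both of Grb14, and 0 were lower, beside 1.89% and 1.15% of all tested probes. With the slide as a block, the 2 probes of Grb14 were higher by limma and 0 were lower, beside 1.16% and 0.461% of all. At an unadjusted limma p under 0.05 without the block, 2 member probes were higher and 3 lower, beside 7.01% of all in either direction.

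Ordered by the log2 difference of the brighter probe, Grb14 was followed by Irs2, Igf2, Igf1r, Igf2r, Grb10, Insr, Irs1 and Igf1. Among 12706 genes with a tested probe, Grb14 had the 48th highest difference and Igf1 the 668th lowest. The median of the 9 genes was 0.12 (0.13 with the slide as a block), with 6 above 0 and 3 below. Over all genes the median was -0.02, and 46.4% were above 0. Below Grb14, the 95% intervals of neighbours in this order overlapped.

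**Figure D3:**
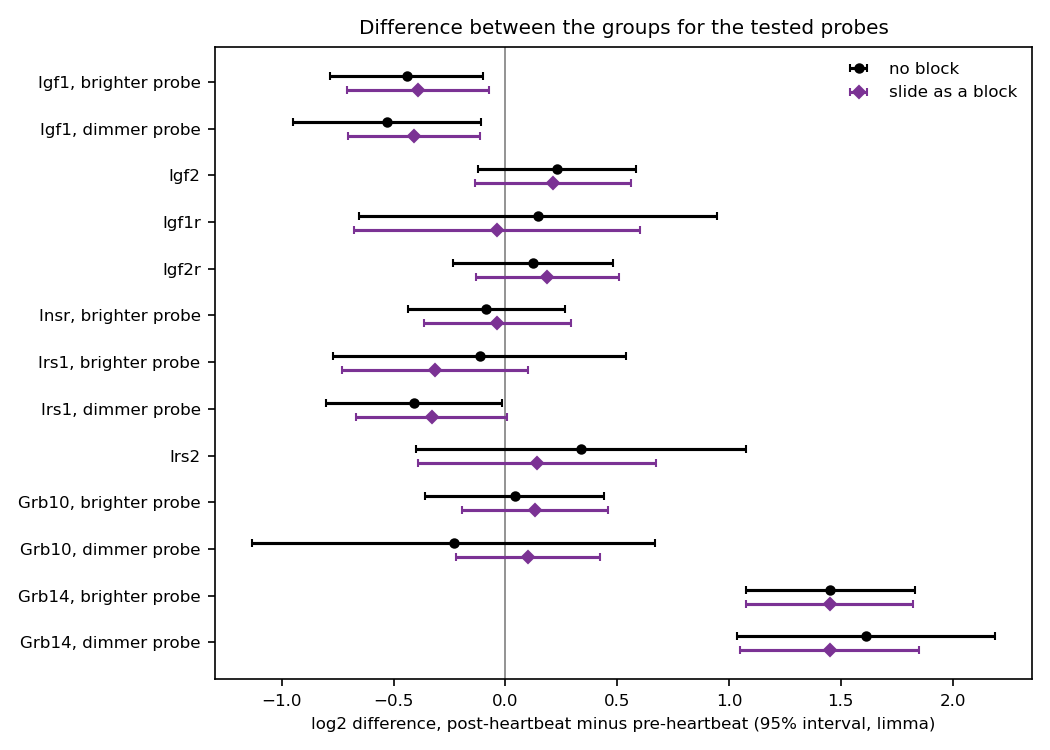
Log2 difference between the groups (post-heartbeat minus pre-heartbeat) for the 13 tested member probes, with 95% intervals from limma, without a block (circles) and with the slide as a block (diamonds). The intervals of both Grb14 probes lie above 1 in both fits, and those of Igf1 lie below 0.

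For each member, the gene whose signals over the 6 arrays followed it most closely was found by the root mean square difference of the mean-centred log2 values. The nearest to Grb14 was Klhl31, a kelch-family gene, at 0.106, with a log2 difference of 1.39 between the groups (limma adjusted p = 0.0444). For Grb14 alone the next genes are named too. They were Ampd1, the AMP deaminase of muscle, and Eno3, the muscle enolase, at 0.132 and 0.134. Grb14 thus varied over the arrays most like these genes, in values that include the difference between the groups. The nearest to Igf1 was Chd1 (0.0481), a chromatin remodeller. The nearest to Igf2 was Slc8b1 (0.0109), to Igf2r Slc4a4 (0.0425), to Igf1r Cep131 (0.0571) and to Insr Jam3 (0.0253). Tcf7 was nearest to Irs1 (0.0703), Eef2k to Irs2 (0.0397) and Ltn1 to Grb10 (0.0316). With 6 arrays and 12706 genes, a near match is a description of these arrays.

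The markers of cardiac muscle moved in the same direction as Grb14, as did the medians of the primitive blood and paraxial mesoderm lists given below. All 13 genes of the cardiac muscle list were well above background on all 6 arrays. Their mean signal ran from 2.82 to 3.20 before and from 3.82 to 3.89 after heartbeat initiation. A positive difference was seen in 13 of 13 (median 0.67), beside 46.4% of all genes. Nppa, the natriuretic peptide gene of the early heart muscle, was the gene of this list that passed limma, with a log2 difference of 1.84 (limma adjusted p = 0.0199). In the methods' selection 6 of the 13 were higher, and 5 passed limma in the slide block, which gave a median of 0.81. Over all genes, 2.31% were higher in this selection, and 1.48% were higher by limma in the slide block against 0.157% without it. The markers of the second heart field had a mean signal between -3.09 and -2.26 before and between -3.41 and -2.44 after heartbeat initiation. Their median difference was -0.43 over 7 genes, or -0.26 in the slide block, and 2 of the 7 were above 0. At an unadjusted limma p under 0.05, 1 of these 7 was lower without the block and 3 with it. Over all genes the share lower was 3.34% without the block and was not counted with it. The part of either cell population in the values of Grb14 and Igf1 was not tested.

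Markers of other tissues were present in both groups. The mean signal of the yolk sac and visceral endoderm list was between -0.05 and 1.16 before and between -0.27 and 0.69 after heartbeat initiation, with a median difference of -0.23 over 9 tested genes. With the slide as a block this median was -0.53. At an unadjusted limma p under 0.05, 5 of the 9 were lower with the block and 1 without it. Over all genes 3.34% were lower without the block, and no share was counted with it. The endothelial list had a median difference of -0.20 over 7 genes (0.06 in the slide block), and the primitive blood list one of 0.72 over 7 genes (0.89 in the slide block), with a mean signal from -2.65 to -1.69 before and from -1.99 to -1.63 after. Over all genes, 2.31% were higher and 1.21% lower in the methods' selection, and 0.0315% were lower by limma. The primitive blood list had 1 gene in this selection, Hbb (1.22, limma adjusted p = 0.361). The neural ectoderm list (4 tested) also had 1, Otx2, which was lower by limma (-1.56, adjusted p = 0.0199). That list as a whole had a median difference of 0.02 (-0.21 in the slide block), with 2 of the 4 above 0. Hbb and Otx2 are named after their values were seen. None of the ranges of the list means given here for yolk sac and primitive blood separated the groups, and their part in the values of the members was not tested.

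The rest of the pathway was described by 10 lists with 136 genes, of which 130 were on the array and 118 were tested. By limma, 0 of the 118 were higher and 0 lower (adjusted p under 0.05), and 15 were higher and 5 lower at an unadjusted p under 0.05, beside 4.68% and 3.34% of all genes. In the methods' selection 8 were higher (6.78%, against 2.31% of all genes) and 0 lower (against 1.21%). Limma with the slide as a block had 4 higher and 0 lower, beside 1.48% and 0.559% of all genes. The median difference of the 118 genes was 0.07, and 68 were above 0, beside a median of -0.02 and 46.4% above 0 over all genes.

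The proteins that bind IGFs in the extracellular space, with the proteases and inhibitors that act on them, were a list of 13 genes, 9 of them tested, with a median difference of 0.24 (0.06 with the slide as a block). Stc2, which encodes an inhibitor of the protease that cleaves IGF binding proteins, had signals of -5.78, -5.67 and -5.49 before and -4.75, -4.61 and -4.17 after heartbeat initiation. Its groups did not overlap, and its log2 difference was 1.14 (SE 0.19, limma adjusted p = 0.107), in the methods' selection. It passed limma with the slide as a block (1.25, adjusted p = 0.0113), and with normexp background correction, which bears on dim probes such as this, the difference was 0.39.

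Stc1, the related stanniocalcin, had a log2 difference of 0.60 (SE 0.24, limma adjusted p = 0.694), with overlapping groups, and one of 0.27 with normexp. Igfbp3, the main IGF carrier of adult serum, had signals of -0.07, -0.21 and -0.17 before and 0.18, 0.20 and 0.11 after heartbeat initiation. Its groups did not overlap, but the log2 difference of 0.31 (SE 0.13) did not pass the test (limma adjusted p = 0.686). In the slide block its difference was 0.28. The other binding proteins had overlapping groups at their brightest tested probe. Their log2 differences were 0.23 for Igfbp1, 0.24 for Igfbp2, 0.22 for Igfbp4, -0.18 for Igfbp5, -0.12 for Igfbp6 and 0.40 for Igfbpl1. In the slide block the differences were -0.11 for Igfbp1, 0.05 for Igfbp2, 0.06 for Igfbp4, -0.15 for Igfbp5, -0.15 for Igfbp6 and 0.11 for Igfbpl1. Igfbp2 and Igfbp5 had 2 tested probes each, and the mean of the probes gave 0.23 and -0.31 without a block. Igfbp7, Igfals and Pappa were not tested, and no probe was matched to Pappa2.

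Downstream of the receptors, the PI3K and AKT list had a median difference of 0.06 over 14 tested genes, the mTOR list -0.02 over 15 and the RAS and MAPK list 0.01 over 16. In the slide block these medians were 0.04, 0.06 and 0.05, so that of the mTOR list changed sign. In these 3 lists together, 1 gene was higher in the methods' selection and 0 were lower, beside 2.31% and 1.21% of all genes. The gene was Slc2a4, which encodes the insulin-responsive glucose transporter of muscle and fat. Slc2a4 had signals of -4.45, -4.34 and -4.62 before and -3.86, -3.71 and -3.73 after heartbeat initiation. Its log2 difference was 0.70 (SE 0.14, limma adjusted p = 0.163), with values of 0.71 in the slide block (limma adjusted p = 0.0649) and 0.34 after normexp.

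Among the other ligands, receptors and substrates of the family (10 tested, median 0.23, or 0.17 in the slide block), Dok1, a docking protein, was in the methods' selection with a log2 difference of 0.74 (SE 0.17, limma adjusted p = 0.226), which was 0.64 in the slide block (limma adjusted p = 0.0789). Among 15 tested phosphatases and other inhibitors (median 0.16, or 0.06 in the slide block), Trib3, a pseudokinase that binds AKT, was at 0.97 (SE 0.21, limma adjusted p = 0.191). Trib3 passed with the slide as a block (1.07, limma adjusted p = 0.0371) and was at 0.37 with normexp. The other 14 inhibitors were outside the selection.

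Of 11 tested genes known as FOXO targets (median 0.19), Trim63, a ubiquitin ligase of striated muscle, had signals of -4.65, -3.86 and -4.06 before and -3.05, -3.12 and -2.92 after heartbeat initiation. The groups did not overlap, and the log2 difference was 1.16 (SE 0.22, limma adjusted p = 0.147), or 1.30 with the slide as a block (limma adjusted p = 0.0151). With normexp it was 0.66. Fbxo32, the other muscle ubiquitin ligase of this list, passed limma only with the slide as a block (0.85, adjusted p = 0.0453) and was otherwise at 0.53 (limma adjusted p = 0.866), and at 0.27 with normexp, with overlapping groups. It is named because of that call, after its values were seen.

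The imprinted genes outside the members (18 tested, median -0.05, or 0.04 in the slide block) held 3 of the 8 genes of the selection. Cdkn1c, a cell cycle inhibitor in the imprinted region that also holds Igf2, had signals of 4.61, 4.06 and 4.50 before and 5.24, 5.32 and 4.88 after heartbeat initiation, a log2 difference of 0.76 (SE 0.20, limma adjusted p = 0.323). Dlk1, a membrane protein of the Notch ligand type, was at 0.67 (SE 0.22, limma adjusted p = 0.474) and at 0.37 with normexp, and Plagl1, a zinc finger transcription factor, at 0.62 (SE 0.14, limma adjusted p = 0.221). None of these 3 passed limma with the slide as a block, where Cdkn1c was at 0.63, Dlk1 at 0.55 and Plagl1 at 0.63. The mannose 6-phosphate list, which holds the other receptor, enzymes and cargo of the route that Igf2r serves, had a median of -0.07 (-0.09 in the slide block) over 8 genes with 0 in the selection, and 2 IGF2 mRNA binding proteins were tested with a median of -0.06 (-0.03 in the slide block).

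**Figure D4:**
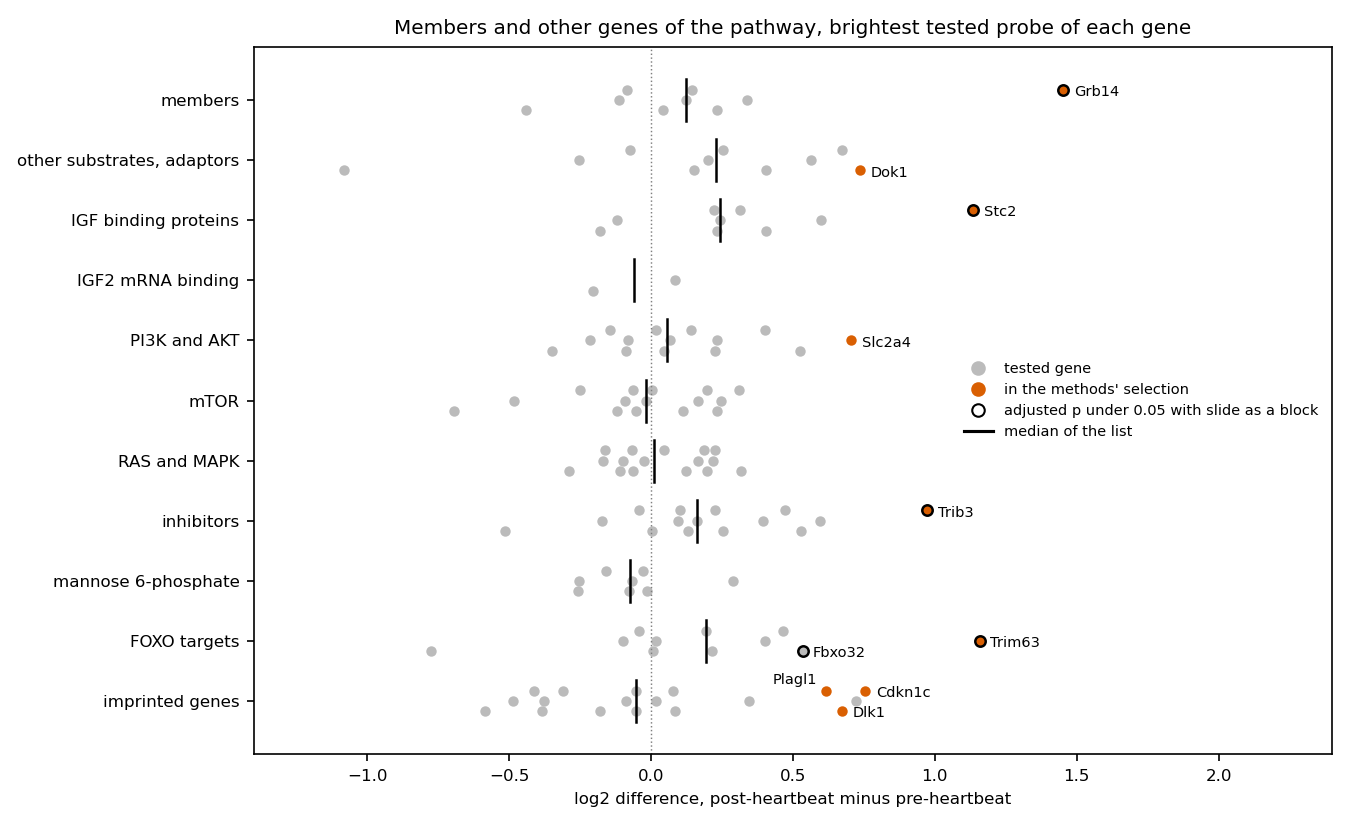
Log2 difference between the groups for the brightest tested probe of each gene, in the 9 members and the 10 pathway lists. Each point is 1 gene, vertical lines are medians, colored points are in the methods' selection, and outlined points passed limma with the slide as a block. Grb14 (1.45) lies to the right of all other points, and every labeled gene is above 0.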

How the data were processed

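Total RNA of 6 heart primordium samples (3 pre-heartbeat, 3 post-heartbeat) was hybridized to 1-color arrays. The authors deposited the processed signal of each spot, an intensity with the background subtracted by Agilent Feature Extraction 10.7.3.1 (submitters' processing notes) and not normalized between arrays. They also deposited ratios on a linear scale, made in GeneSpring by a 75th percentile shift and a baseline per probe, which were used as an alternative. Neither changes what a dim probe can show: differences of signals near background depend on the subtraction.

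Here, control spots and outlier spots were left out, log2 signals were taken relative to the 75th percentile of their array (after the methods of the study), and spots of 1 probe were averaged. A probe was well above background on an array if at least 50% of its spots were, and it was tested if this held on all 3 arrays of at least 1 group (19297 probes). Groups were compared with limma 3.58.1 (R 4.3.3) with Benjamini-Hochberg adjustment over all tested probes, a threshold of 0.05 and no covariate. The selection of the study's methods, a fold change with an unadjusted Tukey HSD test, is given beside it. Member probes were tested by exact permutation as well (20 splits of the arrays). The scripts were tested on simulated data. The number of arrays limits the precision.

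A gene was represented by its tested probe with the highest mean signal. The genes named are all members, all genes of the IGF binding list, in the other pathway lists those in the methods' selection or past limma (at most 3 per direction), and the nearest gene of each member. For Grb14 alone the next nearest genes are named as well. Marker genes are named only where a value touches a result, apart from 2 named after their values were seen. The members and lists were chosen with earlier results of these data known, and the lists were written from general knowledge. Marker lists (8) also covered foregut endoderm (median difference -0.12), neural ectoderm (0.02) and paraxial mesoderm (0.29). In the slide block these medians were -0.03, -0.21 and 0.15, so that of neural ectoderm changed sign. Alternatives were a replicate or slide block, normexp correction (offset 50), quantile normalization, the percentile over probes above background on all arrays, an intensity trend, no filter, a filter on all 6 arrays, the mean of a gene's probes, the authors' ratios, the methods' test with Benjamini-Hochberg adjustment, and leaving out each array.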

Additional observations from a re-analysis of the deposited data

How the results depend on the processing

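The log2 difference of Grb14 stayed above 1 under every alternative run, but its limma adjusted p rose above 0.05 with quantile normalization (1.43), the percentile over probes above background on all arrays (1.45, p = 0.0589), the ratios of the authors (1.43), no filter (1.45) and the mean of its probes (1.53, p = 0.0527). The methods' test with Benjamini-Hochberg adjustment gave 1.45 with adjusted p = 0.204, and leaving out 1 array gave 1.38 to 1.57. The number of member genes higher by limma, 1, was 0 in these same settings (0 to 0 with an array left out). Over all probes, calls without a block were 23 higher and 4 lower, and they numbered 223 and 89 with the slide as a block, 43 and 7 with normexp, 38 and 7 with an intensity trend, 11 and 3 with quantile normalization, 12 and 3 with the other percentile, 10 and 3 with the ratios, 1 and 0 without the filter, and 0 or 1 in each direction with an array left out. With the filter on all 6 arrays they were 28 and 4, and with the mean of the probes of a gene 18 and 3. The settings also differ in size: 30363 probes were tested without the filter, and fewer arrays were fitted with an array left out. The cause of the changes in the counts was not tested.

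Small differences changed sign. Grb10 was -0.10 with the mean of its probes and -0.060 to 0.14 with an array left out, and Igf1r was -0.037 with the slide as a block and -0.22 to 0.37 with an array left out. Irs1 ranged from -0.36 to 0.17 with an array left out and was -0.57 within slide 1, and Igfbp1 was -0.11 with the slide as a block and -0.037 to 0.59 with an array left out. Within slide 1 Insr was 0.077, a change of sign. Within slide 2 Igf1 was -0.26 and Igf2r 0.28, which changed in size but not in sign. Igf2, Igf2r, Irs2 and both probes of Igf1 kept their sign under all alternatives. Irs2, however, ranged from 0.0070 (without pre-heartbeat replicate 2) to 0.57 (without pre-heartbeat replicate 1).

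Of the pathway genes, 1 was higher by limma with the replicate block and 4 with the slide block. Over all genes 1.48% were higher with the slide block, and no share of genes was counted with the replicate block. In the methods' selection, 2 were higher with normexp and 5 to 9 with an array left out (5 without post-heartbeat replicate 2). Lower genes in the selection were 1 without the filter and 0 to 4 with an array left out (4 without pre-heartbeat replicate 1). The share of all genes in the selection was not counted in these settings, so these counts have no reference. Without pre-heartbeat replicate 1 the median difference over all tested probes was -0.08. The replicate numbers were shared by the groups, but the deviations of same-numbered arrays correlated at 0.65, -0.28 and 0.49 for numbers 1, 2 and 3. Numbers 1 and 3 each lay on a single slide and number 2 on both, so the numbers were not taken to pair the samples. With the replicate number as a block Grb14 was 1.45 (limma adjusted p = 0.0242), Stc2 passed (limma adjusted p = 0.0414), and calls over all probes were 95 higher and 49 lower.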
